A study of Saccharomyces cerevisiae with 26 samples.

Results

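The 10 genes described here encode the translation elongation factors of budding yeast and the ribosome-binding protein Stm1. They are TEF1 (YPR080W), TEF4 (YKL081W), CAM1 (YPL048W), EFB1 (YAL003W), YEF3 (YLR249W), EFT1 (YOR133W), EFT2 (YDR385W), HYP2 (YEL034W), ANB1 (YJR047C) and STM1 (YLR150W). They were chosen by identifier for their role in elongation, by a rule that used no measured value, though earlier results of these data were known. They are 10 of the 7036 rows of the gene count table.

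RNA-Seq of poly(A)-selected transcripts and ribosome profiling (Ribo-Seq, sequencing of the mRNA fragments that ribosomes protect from ribonuclease) were obtained for 3 haploid strains of Saccharomyces cerevisiae, giving 26 libraries in 4 batches. The wild type (wt) was BY4742, of mating type MATalpha with the alleles his3Δ1, leu2Δ0, lys2Δ0 and ura3Δ0, and both deletion strains carry the same alleles. In gir2Δ a KanMX cassette replaced GIR2, which encodes the partner of the ribosome-binding GTPase Rbg2, and in pub1Δ it replaced PUB1, which encodes a poly(A)- and poly(U)-binding protein. The number of independent clones behind each deletion is not given in the sources used here. All cultures grew exponentially in YPD with no added agent, and cycloheximide was present only from lysis on. There were 5 RNA-Seq libraries of wt, 4 of gir2Δ and 5 of pub1Δ, and each strain had 4 Ribo-Seq libraries. Batch 2 held only gir2Δ (replicates 1 to 3 of each assay) and batch 3 only pub1Δ (replicates 1 to 3), so that strain and batch cannot be told apart in them. Batch 1 held wt RNA-Seq replicates 1, 4 and 5, wt Ribo-Seq replicates 1 and 4, gir2Δ replicate 4 of each assay, pub1Δ RNA-Seq replicate 5 and pub1Δ Ribo-Seq replicate 4. Batch 4 held wt replicates 2 and 3 of each assay and pub1Δ RNA-Seq replicate 4. After adjustment for batch, the gir2Δ change therefore rested on replicate 4 alone, that of pub1Δ RNA-Seq on replicates 4 and 5, and that of pub1Δ Ribo-Seq on replicate 4.

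The libraries held 2217490 to 3896827 counts in genes for RNA-Seq and 540986 to 3123180 for Ribo-Seq. GIR2 had 1 to 16 counts in the gir2Δ RNA-Seq libraries against 375 to 504 in wt, and PUB1 had 1 to 47 in pub1Δ against 639 to 1013 in wt. In 1 pub1Δ library, RNA-Seq replicate 1, the genotype label names the GIR2 deletion, while its strain label and title name pub1Δ. With 894 counts of GIR2 and 1 of PUB1, the library was kept as pub1Δ. LEU2, LYS2 and URA3, deleted in the parent, had 0 to 6 counts over all libraries.

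During elongation eEF1A, as a GTPase, delivers aminoacyl-tRNA to the ribosome. The eEF1B complex exchanges its bound GDP for GTP, and eEF2 moves the tRNAs and the mRNA by a codon after each peptide bond. Fungi need in addition the ATPase eEF3, which acts on the ribosome near the exit site for tRNA. The factor eIF5A, which carries the modified lysine hypusine, enters ribosomes that slow at prolines and other poor substrates. Stm1 is known as a protein that sits in the mRNA channel of ribosomes that are not translating, and it has been linked to the action of eEF3. In growing yeast most genes of these factors are strongly expressed.

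Several of the genes exist as near-identical pairs, which limits what can be counted, since only reads with 1 position in the genome entered the table. TEF1 on chromosome XVI (700594 to 701970, + strand, genome build R64, as are all positions here) and TEF2 on chromosome II (477671 to 479047, + strand) both encode eEF1A. TEF2 is not among the 10 genes and is shown as the partner of TEF1. Their coding sequences of 1377 bases differ at 2 positions, T762C and T834C, written with the base of TEF1 first and positions counted from the A of the start codon. The 60 bases of coding positions 732 to 791 hold the first of them, given here in capitals.

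TEF1: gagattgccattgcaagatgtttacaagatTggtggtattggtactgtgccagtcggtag
TEF2: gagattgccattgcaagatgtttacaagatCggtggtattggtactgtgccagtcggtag

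EFT1 on chromosome XV (575098 to 577626, + strand) and EFT2 on chromosome IV (1243230 to 1245758, + strand) both encode eEF2. Of 2529 coding bases 4 differ, namely A447G, C882T, C2145T and C2364T, with the base of EFT1 first. Coding positions 417 to 476 show how little separates them, with the differing base in capitals.

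EFT1: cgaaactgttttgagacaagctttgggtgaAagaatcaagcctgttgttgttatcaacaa
EFT2: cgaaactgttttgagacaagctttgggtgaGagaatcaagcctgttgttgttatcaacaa

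HYP2 on chromosome V (85676 to 86149, + strand) and ANB1 on chromosome X (524908 to 525381, - strand) encode the isoforms of eIF5A that yeast uses with and without oxygen, respectively. They have diverged further, with 43 differences in 474 coding bases and 90.9% identity. Coding positions 286 to 345 contain 10 of these differences, again in capitals, so most footprints of this stretch can be assigned to either gene.

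HYP2: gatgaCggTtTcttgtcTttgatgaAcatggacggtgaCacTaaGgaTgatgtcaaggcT
ANB1: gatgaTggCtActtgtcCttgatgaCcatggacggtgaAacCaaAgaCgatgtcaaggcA

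To measure this limit, every 28-nucleotide window was taken whose base 13, about where the ribosomal P-site lies, falls in the coding sequence. Windows that occur at most once in the genome were counted as unique. For TEF4 and EFB1 the windows followed the spliced sequence, so those across the exon junction need not occur in the genome. TEF1 had 82 unique windows of 1377 (5.95%), and TEF2 the same number. EFT1 and EFT2 each had 136 of 2529 (5.38%). The unique windows of TEF1 and TEF2 were 56 that cover a differing base and 26 that reach past the start or stop codon, and those of EFT1 and EFT2 were 112 and 24. A few windows past the ends were not unique, 1 in TEF1 and TEF2 and 3 in EFT1 and EFT2. HYP2 and ANB1 had 435 of 474 (91.8%). The remaining genes were almost wholly unique, with 100% for EFB1 on chromosome I (142174 to 143160, + strand, 2 coding exons) and STM1 on chromosome XII (440467 to 441288, + strand). The share was 99.2% for TEF4 on chromosome XI (282891 to 284455, + strand, 2 coding exons) and CAM1 on chromosome XVI (464401 to 465648, + strand), and 99.3% for YEF3 on chromosome XII (636780 to 639914, + strand). Introns of TEF4 and EFB1 each hold a gene of a noncoding RNA, YNCK0009W and YNCA0003W, on the same strand. Counts of TEF1, EFT1 and EFT2 are thus far too low as levels. Whether the undercount was equal in all libraries was not tested, and the share of reads with several genomic positions differed between them.

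Levels are given as normalised read count in CPM, that is, counts scaled by a library size corrected with TMM factors. In wt the 10 genes together took 1.47 to 2.09% of RNA-Seq counts and 2.59 to 3.07% of Ribo-Seq counts. YEF3 alone accounted for 1.09 to 1.36% of the wt Ribo-Seq counts. These totals leave out reads with several genomic positions. The range over libraries was 1.45 to 1.55% of RNA-Seq and 2.75 to 2.92% of Ribo-Seq in gir2Δ, and 1.50 to 1.93% and 2.50 to 2.73% in pub1Δ.

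**Figure D1:**
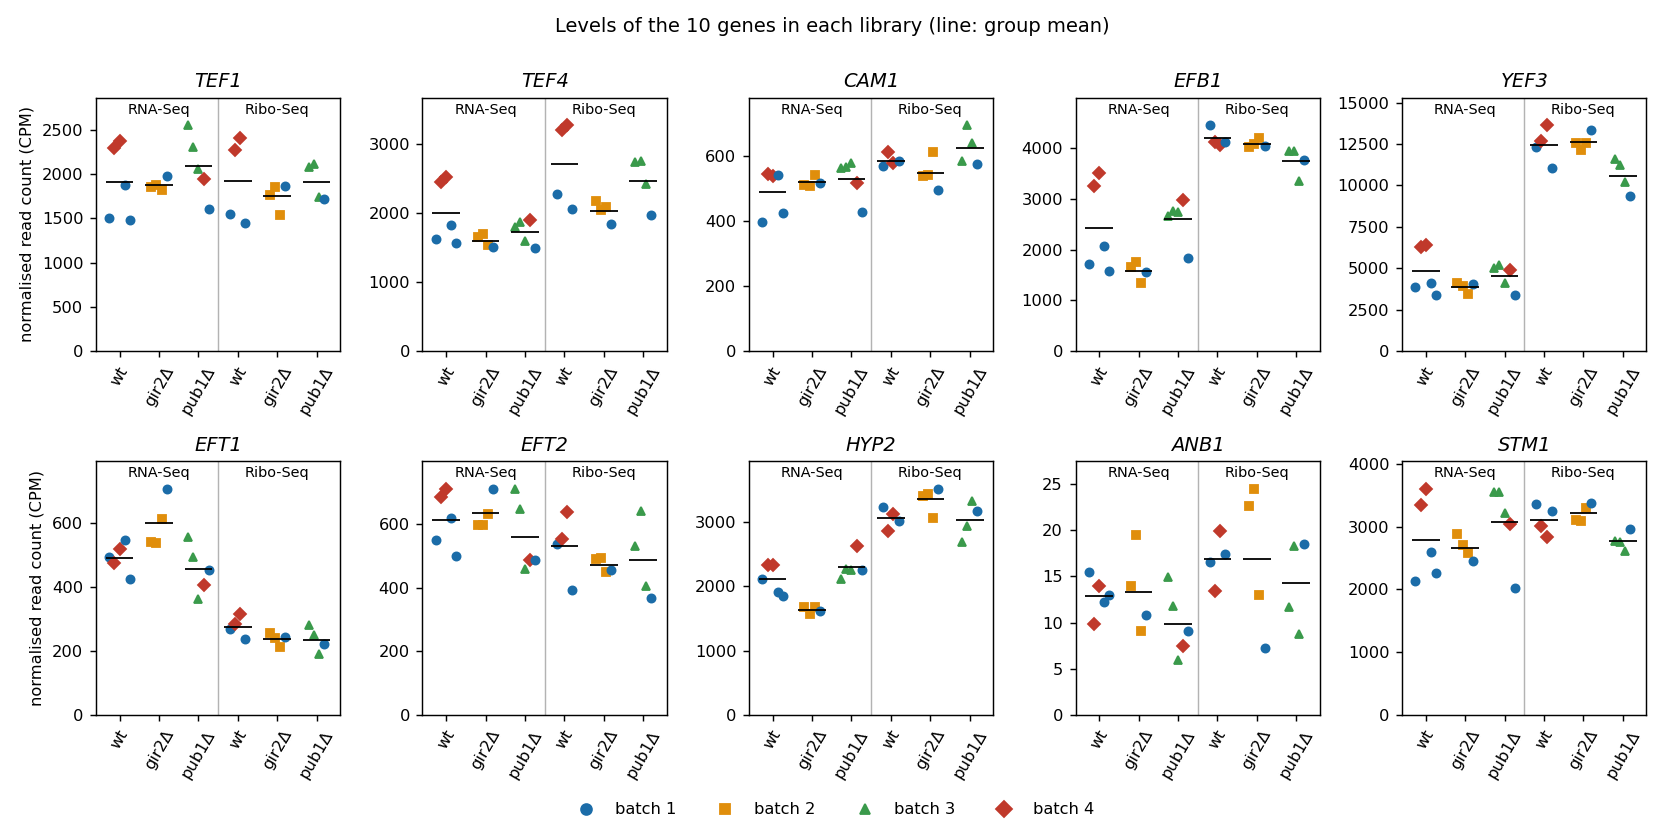
Normalised read count (CPM, linear axis from 0) of each gene in each library, by strain and assay, with symbols for the batch and a line at the group mean. In RNA-Seq the batch 4 wt libraries of EFB1 sit at 3244 and 3513, above the 1588 to 2076 of batch 1, while in Ribo-Seq the wt libraries of EFB1 lie between 4067 and 4458.

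In wt Ribo-Seq, the level per unique window, which allows for length and for the shared sequence, ranked TEF1 highest with 23.4 ± 5.97 CPM per window (SD, n = 4). TEF2 followed with 18.0 ± 3.71. The ranges of both overlapped, while TEF1 lay above TEF2 within each of the 4 libraries. HYP2, the aerobic eIF5A, with 7.04 ± 0.376 and EFB1, the nucleotide exchange subunit eEF1Bα, with 6.75 ± 0.289 came next and also overlapped, with HYP2 the higher in 3 of the 4 libraries. YEF3 (eEF3) with 3.99 ± 0.347, EFT2 with 3.90 ± 0.747 and STM1 with 3.78 ± 0.290 could not be separated by their ranges. TEF4, which encodes the eEF1Bγ subunit, with 2.20 ± 0.507 and EFT1 with 2.03 ± 0.246 overlapped as well, TEF4 being the higher in 2 of the 4 libraries. CAM1, the other eEF1Bγ gene, stood below them at 0.474 ± 0.0153, and ANB1 was lowest at 0.0387 ± 0.00608 CPM per window. Over all windows, unique or not, TEF1 would read 1.39, EFT1 0.109 and EFT2 0.210. Footprints longer than the 28 nucleotides assumed are unique in more places, so the values of TEF1, TEF2, EFT1 and EFT2 are rough, and they rest largely on windows at differing bases and at the ends of the reading frame. In wt RNA-Seq the order of TEF1 and TEF2 was the reverse in each library. TEF1 read 1509, 2289, 2374, 1881 and 1484 CPM in replicates 1 to 5. TEF2 read 1769, 2934, 2796, 2265 and 1763 CPM.

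**Figure D2:**
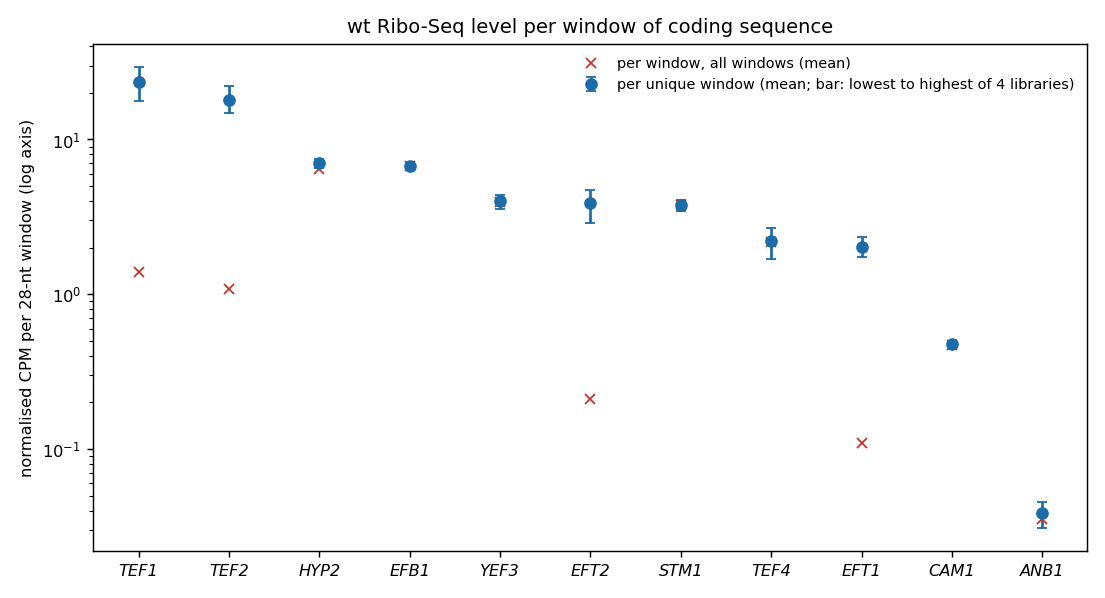
wt Ribo-Seq level per 28-nt window of coding sequence on a log axis, with circles for counts divided by unique windows (mean, bar from lowest to highest of 4 libraries) and crosses for counts divided by all windows. The circle and the cross separate for TEF1 (23.4 against 1.39), TEF2, EFT1 (2.03 against 0.109) and EFT2 (3.90 against 0.210) and nearly coincide for the other genes.

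Ranked by wt level per kilobase of coding sequence among 4461 tested genes of known length, HYP2 held position 72 by transcripts and 33 by footprints, EFB1 at 82 and 31, and STM1 at 98 and 75. YEF3 stood at 168 and 71, TEF4 at 162 and 144, and CAM1 at 409 and 377. ANB1 was at 3523 and 2257 and had only 24 to 41 counts per wt RNA-Seq library and 18 to 45 per wt Ribo-Seq library. All 10 genes passed the filter on low values, which asked for 10 CPM in at least 4 libraries of each assay and left 4473 genes to be tested.

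ANB1 is known as a target of the haem-dependent repressor Rox1. The oxygen level of the cultures is not given in the sources used here. In the 500 bases before each start codon the core letters ATTGTTC of the Rox1 site, searched on both strands, occurred in 712 of 6025 genes (11.8%) and in 2 of the 10 genes. ANB1 held 3 matches, starting at -312, -281 and -214 relative to the start codon. YEF3 held 1, starting at -478. The 3 windows of ANB1, 30 bases each with the match in capitals, are shown because the gene is the least expressed of the 10, in the order of the positions above.

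ANB1 first: tttcgtttttccATTGTTCgttcgttgcct
ANB1 second: ttttttcgccctATTGTTCtcgagcctaaa
ANB1 last: gtttcctattccATTGTTCtctttggtaaa

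Matching letters are a description of the sequence and were not tested as binding sites.

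Footprints relative to transcripts were compared in wt as the log2 ratio of Ribo-Seq to RNA-Seq CPM. This used the 4 pairs of libraries whose titles share number and batch. Each pair was taken as 1 culture, which the labels do not state. The scale of this ratio is set by the normalisation within each assay, and the median over tested genes was -0.55, -0.65, -0.67 and -0.53 in replicates 1 to 4. YEF3 had the highest ratios, 1.66, 1.01, 1.09 and 1.43. EFB1 read 1.38, 0.34, 0.21 and 0.99, a spread wider than that of any other of the 10 genes, and STM1 read 0.65, -0.15, -0.35 and 0.33. In both of these genes replicates 1 and 4 (batch 1) lay above replicates 2 and 3 (batch 4). HYP2 ranged from 0.29 to 0.66, TEF4 from 0.18 to 0.48, CAM1 from 0.10 to 0.52, ANB1 from 0.097 to 0.52, TEF1 from -0.38 to 0.038 and EFT2 from -0.65 to -0.037. EFT1 had the lowest ratios, -1.21 to -0.71, and was the only gene of the 10 below the all-gene median in every pair. RNA-Seq fragments and footprints of a shared sequence need not be unique at the same rate, so the ratios of TEF1, EFT1 and EFT2 cannot be set beside those of the other genes.

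**Figure D3:**
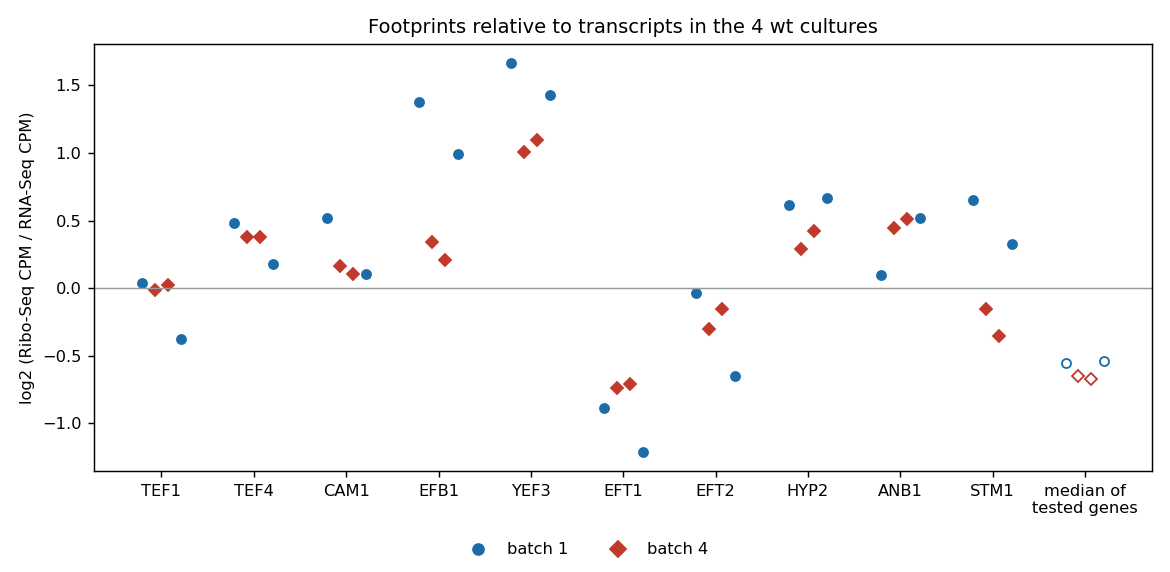
Log2 ratio of Ribo-Seq to RNA-Seq normalised read count in the 4 wt pairs of libraries that share number and batch, each taken as 1 culture. Circles mark batch 1, diamonds batch 4 and open symbols the median over tested genes. EFB1 (0.99 and 1.38 against 0.21 and 0.34) and STM1 (0.33 and 0.65 against -0.35 and -0.15) separate by batch.

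The first question was whether loss of Gir2 changes the elongation genes at the level of transcripts, footprints or ribosome occupancy (RO), that is, footprints relative to transcripts. Of the 10 genes 0 were called in gir2Δ at an adjusted p under 0.05 in edgeR's quasi-likelihood test with batch as a term, in RNA-Seq, Ribo-Seq or RO. Over all tested genes the test called 0.0671%, 0.0224% and 0.0%, respectively. An unadjusted p under 0.05 was reached by 2 of the 10 genes in RNA-Seq, against 14.0% of all tested genes, by 4 in Ribo-Seq, against 8.43%, and by 1 in RO, against 7.6%. DESeq2 with the same terms also called 0 of the 10 genes, against 0.469%, 0.0447% and 0.112% of all tested genes. With ComBat-seq counts and no batch term, the study's own way of handling batches, 5, 6 and 3 of the 10 genes were called, against 33.9%, 25.4% and 22.6% of all tested genes, at nearly the same log2 changes and smaller standard errors. ComBat-seq was given the strain labels here, and the fit after it counted all adjusted libraries as replicates. Its p-values for both strains thus leave out the uncertainty of the batch adjustment. The fits for gir2Δ and pub1Δ use the same wt libraries.

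HYP2 was the gene whose transcript levels in gir2Δ stood apart from wt. Its RNA-Seq levels were 1675, 1568, 1676 and 1613 CPM in gir2Δ replicates 1 to 4, and 2113, 2333, 2339, 1905 and 1849 in wt replicates 1 to 5. All gir2Δ libraries lay below all wt libraries, in both batches that held gir2Δ. Groups separated in this way, with gir2Δ lower, in 3.11% of all tested genes, and with gir2Δ higher in 2.3%, where the 10 genes had 0. The batch-adjusted log2 change was -0.28 (SE 0.127, adjusted p = 0.317). Footprints of HYP2 were at 3403, 3439, 3066 and 3521 CPM in gir2Δ against 3237, 2855, 3131 and 3019 in wt, overlapping groups and a log2 change of 0.17 (SE 0.115, adjusted p = 0.733). The RO change was 0.47 (SE 0.174, approximate 95% interval 0.13 to 0.81, adjusted p = 0.473). With ComBat-seq the RO change of 0.48 was called (SE 0.0835, adjusted p = 1.8e-04), and with a term for each culture, since both assays came from parts of the same lysate, it was 0.52 (SE 0.164, adjusted p = 0.193).

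EFT1 gave the largest RNA-Seq change of the 10 genes in gir2Δ, 0.51 (SE 0.178, adjusted p = 0.23). It read 542, 539, 613 and 708 CPM in gir2Δ and 494, 474, 518, 547 and 424 in wt. The highest value was that of replicate 4, the library on which the batch-adjusted change rests, and the groups overlapped. The estimate for EFT2 was 0.31 (SE 0.182, adjusted p = 0.431). For footprints the estimates were -0.042 (SE 0.178) for EFT1 and -0.029 (SE 0.205) for EFT2, and RO was -0.54 (SE 0.286) and -0.32 (SE 0.313), with adjusted p of 0.689 and 0.865. With ComBat-seq EFT1 was called both as higher in RNA-Seq (0.52, adjusted p = 7.7e-04) and as lower in RO (-0.53, adjusted p = 0.007). In the ribosomal protein list described below, 128 of 138 genes had a positive batch-adjusted gir2Δ change in RNA-Seq (median 0.31). In RO 11 of 138 did (median -0.33). Over all 4473 tested genes the change was positive in 2219 and 2217, respectively.

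Of the eEF1A and eEF1B genes, TEF1 had a log2 estimate in gir2Δ of 0.25 (SE 0.152) in RNA-Seq and 0.31 (SE 0.125) in Ribo-Seq, with adjusted p of 0.452 and 0.556. Its near-identical partner TEF2 showed -0.044 (SE 0.149) and 0.12 (SE 0.148). EFB1 was at -0.24 (SE 0.168) and -0.088 (SE 0.101), TEF4 at -0.17 (SE 0.14) and -0.24 (SE 0.102), and CAM1 at 0.19 (SE 0.14) and -0.22 (SE 0.126). None of these passed the test, and their adjusted p ranged from 0.536 to 0.858 for EFB1 and from 0.557 to 0.658 for CAM1. YEF3 was at 0.077 (SE 0.16) in transcripts and 0.19 (SE 0.09) in footprints, where replicate 4 read 13359 CPM and wt in batch 1 read 11044 and 12305. STM1 showed the narrowest interval among the footprint changes, -0.14 to 0.21 around 0.035. ANB1 had the widest, -2.19 to -0.24 around -1.22 (SE 0.497, adjusted p = 0.556), with 22.6, 24.5, 13.0 and 7.26 CPM in gir2Δ against 16.5, 13.5, 19.9 and 17.4 in wt. The gir2Δ libraries of ANB1 lay on both sides of wt at 11 to 43 counts, and the estimate followed replicate 4.

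The second question was the same for loss of Pub1. Again 0 of the 10 genes were called in RNA-Seq, Ribo-Seq or RO, while the test called 0.0447%, 0.134% and 0.0% of all tested genes. An unadjusted p under 0.05 was reached by 4, 1 and 0 of the 10 genes, against 9.39%, 7.91% and 3.76% of all tested genes, and DESeq2 again called 0, against 0.246%, 0.246% and 0.0224%. With ComBat-seq 1, 4 and 0 of the 10 genes were called, against 11.0%, 12.2% and 2.5% of all tested genes.

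In RNA-Seq 9 of the 10 genes had a negative batch-adjusted change in pub1Δ, with a median of -0.20 against -0.00089 over all tested genes. The change was positive in 2225 of all 4473 tested genes. In the ribosomal protein list described below it was positive in 36 of 138, with a median of -0.089. Among the 10 genes, after ANB1 with -0.61 (SE 0.358, adjusted p = 0.636), the largest negative changes were those of EFT2, -0.34 (SE 0.14, adjusted p = 0.445), TEF4, -0.26 (SE 0.104, adjusted p = 0.424), YEF3, -0.26 (SE 0.12, adjusted p = 0.516) and STM1, -0.20 (SE 0.103, adjusted p = 0.571). HYP2 alone was positive, at 0.19 (SE 0.0909, adjusted p = 0.531). It read 2262 CPM in the pub1Δ library of batch 1 against 1849 to 2113 in the 3 wt libraries there, and 2631 in that of batch 4 against 2333 and 2339 in wt. Levels of pub1Δ and wt overlapped for each of the 10 genes in RNA-Seq, whereas 2.97% of all tested genes were higher in every pub1Δ library and 1.23% lower.

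The RNA-Seq signs depended on the batch term. Fitted without it, TEF1, CAM1, EFB1 and STM1 had changes of 0.13, 0.11, 0.098 and 0.14. STM1 for example read 3553, 3555 and 3210 CPM in batch 3, 3036 in the pub1Δ library of batch 4 against 3350 and 3606 in wt, and 2020 in that of batch 1 against 2141 to 2593 in wt. The pub1Δ library of STM1 was thus below wt inside both batches that held the 2 strains.

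In Ribo-Seq of pub1Δ, footprint levels of YEF3, STM1 and EFB1 lay mostly or wholly below wt, and none of the 3 passed the test. The batch-adjusted footprint change was positive in 4 of the 10 genes, with a median of -0.15. In the ribosomal protein list described below it was positive in 13 of 138, with a median of -0.14. Over all 4473 tested genes it was positive in 2034, with a median of -0.024. YEF3 footprints were 11609, 11229, 10221 and 9345 CPM in pub1Δ against 12305, 12669, 13661 and 11044 in wt, a log2 change of -0.32 (SE 0.0917, approximate 95% interval -0.50 to -0.14, adjusted p = 0.246). Only the lowest wt library, of batch 1, fell inside the pub1Δ range. STM1 footprints were 2765, 2761, 2610 and 2959 CPM against 3357, 3009, 2827 and 3249, a change of -0.16 (SE 0.0876, adjusted p = 0.704), again with 1 wt library inside the pub1Δ range. EFB1 footprints were 3951, 3946, 3345 and 3769 CPM against 4458, 4116, 4067 and 4129, a change of -0.19 (SE 0.101, adjusted p = 0.698). The 4 pub1Δ libraries of EFB1 were all below wt, a separation seen in 2.37% of all tested genes, with 1.74% separated in the other direction, where the 10 genes had 0. The 4 genes called with ComBat-seq were YEF3 at -0.31 (SE 0.0467, adjusted p = 8.0e-04), EFB1 at -0.17 (SE 0.049, adjusted p = 0.0311), STM1 at -0.14 (adjusted p = 0.0409) and TEF1 at 0.22 (adjusted p = 0.0423). RO of YEF3, -0.035 (SE 0.192), and of EFB1, -0.098 (SE 0.2), had intervals that reached from -0.41 to 0.34 and from -0.49 to 0.29. Footprint estimates of the remaining genes ranged from -0.34 (EFT2) to 0.20 (TEF1), and RO estimates from -0.15 (HYP2) to 0.76 (ANB1, SE 0.53, 5 to 60 footprint counts in pub1Δ), none of which passed the test.

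In Ribo-Seq of gir2Δ 0 of the 10 genes were separated from wt in either direction, against 2.79% of all tested genes higher and 3.73% lower.

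**Figure D4:**
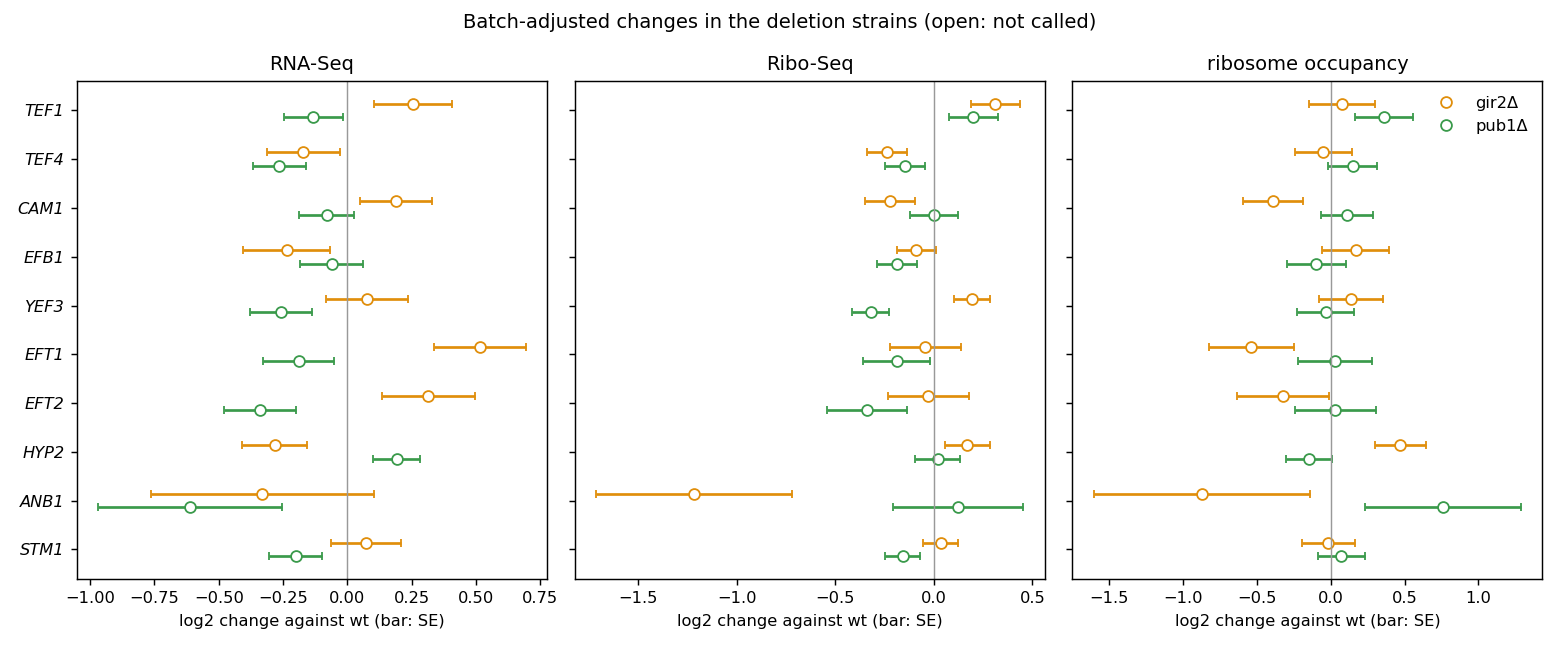
Batch-adjusted log2 change of each gene in gir2Δ and pub1Δ against wt by assay (left, middle) and as RO (right), with bars of 1 SE and open circles because 0 of the 10 genes passed the test. HYP2 in gir2Δ lies at -0.28 in RNA-Seq and 0.47 in occupancy, YEF3 in pub1Δ at -0.32 in Ribo-Seq, and ANB1 has the longest bars.

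A list of 25 further elongation genes held TEF2, the eEF3 paralogs HEF3 and NEW1, the enzymes that put diphthamide on eEF2 and hypusine on eIF5A, the methyltransferases of elongation factors, assembly factors, the termination factors SUP45 and SUP35, the ribosome dormancy factor LSO2 and the stress-activated kinase RCK2. Of these, 23 were tested. HEF3 (at most 48 RNA-Seq and 11 Ribo-Seq counts per library) and EFM6 were too low. In each of the strain comparisons edgeR called 0 of the 23. An unadjusted p under 0.05 was reached by 2 (RNA-Seq), 2 (Ribo-Seq) and 1 (RO) of the 23 in gir2Δ. The shares of all tested genes were 14.0%, 8.43% and 7.6%. In pub1Δ it was reached by 3, 0 and 1 of the 23, against 9.39%, 7.91% and 3.76%. DESeq2 called 1, LSO2 in RNA-Seq of pub1Δ, against 0.246% of all tested genes. ComBat-seq counts gave 7, 8 and 5 calls in gir2Δ, against 33.9%, 25.4% and 22.6% of all tested genes. In pub1Δ these counts gave 4, 1 and 0 calls, against 11.0%, 12.2% and 2.5%. Median changes of the 23 in the edgeR fit were 0.056 (RNA-Seq), 0.079 (Ribo-Seq) and 0.037 (RO) in gir2Δ, and -0.065, 0.075 and 0.14 in pub1Δ. The 10 genes had medians of 0.075, -0.036 and -0.034 in gir2Δ, and of -0.20, -0.15 and 0.051 in pub1Δ. Over all tested genes these medians lay between -0.037 and 0.0078.

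The levels in wt differed between batches, and this difference can be measured without a strain difference because batches 1 and 4 both held wt. EFB1 and YEF3 transcripts were the most different of the 10 genes. EFB1 transcripts were 3244 and 3513 CPM in batch 4 against 1717, 2076 and 1588 in batch 1, a log2 change of 0.86 (SE 0.131, adjusted p = 5.7e-05). For YEF3 the values were 6293 and 6405 against 3886, 4094 and 3391, a change of 0.69 (SE 0.128, adjusted p = 4.2e-04). The ranges of the batches did not overlap for either gene. Batch here is the number in the labels, which do not say whether it marks the day of culture, library preparation or sequencing, and in bulk cultures a change within cells and a change in the mix of cells cannot be told apart.

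In all, 5 of the 10 genes were called in wt RNA-Seq, against 30.3% of all tested genes. All 5 were higher in batch 4, a direction in which 10.2% of all tested genes were called, while 20.1% were called lower. The others were STM1 with 0.53 (SE 0.125, adjusted p = 0.00394), TEF4 with 0.52 (SE 0.118, adjusted p = 0.0028) and TEF1 with 0.47 (SE 0.128, adjusted p = 0.01). EFT2 with 0.28, HYP2 with 0.21, CAM1 with 0.20, EFT1 with -0.027 and ANB1 with -0.24 did not pass. An unadjusted p under 0.05 was reached by 6 of the 10 genes, against 40.0%. Every batch 4 library lay above every batch 1 library for 7 of the 10 genes, against 28.4% of all tested genes, and below for 0, against 26.7%. TEF1 was not called without replicate 1 (0.42, adjusted p = 0.0914) or replicate 3 (0.43, adjusted p = 0.0797). STM1 was likewise not called without replicate 1 (0.47, adjusted p = 0.061) or replicate 3 (0.46, adjusted p = 0.0517). Without replicate 4 both CAM1 (0.37, adjusted p = 0.00906) and EFT2 (0.38, adjusted p = 0.00906) were called.

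In wt Ribo-Seq 3 of the 10 genes were called, against 31.1% of all tested genes. Of these, 2 were higher in batch 4 (background 11.2%) and 1 lower (background 20.0%). TEF1 footprints were 2268 and 2409 CPM in batch 4 against 1549 and 1450 in batch 1, a change of 0.65 (SE 0.0678, adjusted p = 2.4e-05). TEF4 footprints were 3201 and 3281 against 2281 and 2067, a change of 0.58 (SE 0.0639, adjusted p = 3.7e-05). Both genes thus differed in the same direction in transcripts and footprints, as did TEF2, at 0.52 (SE 0.131) and 0.51 (SE 0.0654). Reads with several genomic positions, which were not counted, made up 53.6 and 61.2% in batch 4 of these Ribo-Seq libraries and 41.7 and 42.9% in batch 1. TEF4 has 99.2% unique windows. The part of this share in the values of TEF1, TEF2, EFT1 and EFT2 was not tested.

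STM1 and EFB1 did not share this pattern. STM1 footprints were 3009 and 2827 CPM in batch 4 against 3357 and 3249 in batch 1, a change of -0.18 (SE 0.0537, adjusted p = 0.0292). That call was lost with DESeq2 (adjusted p = 0.301), with median-of-ratios factors (adjusted p = 0.0693) and without replicate 1, 3 or 4 (adjusted p of 0.155, 0.115 and 0.0629). EFB1 footprints were 4116 and 4067 CPM against 4458 and 4129, a change of -0.067 (SE 0.0543, adjusted p = 0.392). YEF3 footprints were at 0.18 (SE 0.0617, adjusted p = 0.0515), short of the threshold. YEF3 was called with median-of-ratios factors (0.20, adjusted p = 0.0316), with no filter (0.18, adjusted p = 7.8e-04), without replicate 1 (0.26, adjusted p = 0.00462) and without replicate 2 (0.25, adjusted p = 5.4e-04). EFT2 footprints, at 0.36 (adjusted p = 0.0729), were called with no filter (0.37, adjusted p = 0.00419), without replicate 1 (0.60, adjusted p = 0.0124) and without replicate 2 (0.48, adjusted p = 1.7e-05). EFT1 was called without replicate 2 (0.36, adjusted p = 0.00797). Batch 4 was above batch 1 for 5 of the 10 genes and below for 2, against 30.8% and 34.7% of all tested genes, and 6 of the 10 had an unadjusted p under 0.05, against 41.0%.

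The difference between the assays was then tested itself, as an interaction of batch and assay over the 9 wt libraries, a comparison added after the values of each assay had been seen. Its TMM factors were computed over both assays together. Its values are therefore not the plain differences of the changes given above, and they include a shift common to all genes. EFB1 changed by -0.78 (SE 0.179, approximate 95% interval -1.13 to -0.43, adjusted p = 0.00771) and STM1 by -0.56 (SE 0.162, interval -0.87 to -0.24, adjusted p = 0.0321). They were the 2 of the 10 genes called, both lower, against 13.0% of all tested genes called, 5.68% higher and 7.29% lower. An unadjusted p under 0.05 was reached by 4 of the 10 genes, against 26.9%. The median over all tested genes was 0.09 with TMM factors and -0.041 with median-of-ratios factors, under which EFB1 was at -0.92 (adjusted p = 0.0017) and STM1 at -0.69 (adjusted p = 0.00693). With those factors 137 genes were called higher and 438 lower, in place of 254 and 326.

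EFB1 was not called without Ribo-Seq replicate 1 (-0.72, adjusted p = 0.0533). STM1 was not called without RNA-Seq replicate 1 (-0.50, adjusted p = 0.0948) or 3 (-0.48, adjusted p = 0.0911), nor without Ribo-Seq replicate 1 (adjusted p = 0.121), 2 (adjusted p = 0.0789), 3 (adjusted p = 0.136) or 4 (adjusted p = 0.0954). With a term for each culture, EFB1 (-0.70, adjusted p = 0.0104) and STM1 (-0.53, adjusted p = 0.0421) passed and EFT1 was called in addition at 0.53 (adjusted p = 0.026, 0.151 without that term). TEF1 (0.32, SE 0.175) and TEF4 (0.21, SE 0.157) did not pass, and YEF3 (-0.37, SE 0.171, adjusted p = 0.175) passed only with DESeq2 (-0.50, adjusted p = 0.0358) or without RNA-Seq replicate 4 (-0.44, adjusted p = 0.0249).

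**Figure D5:**
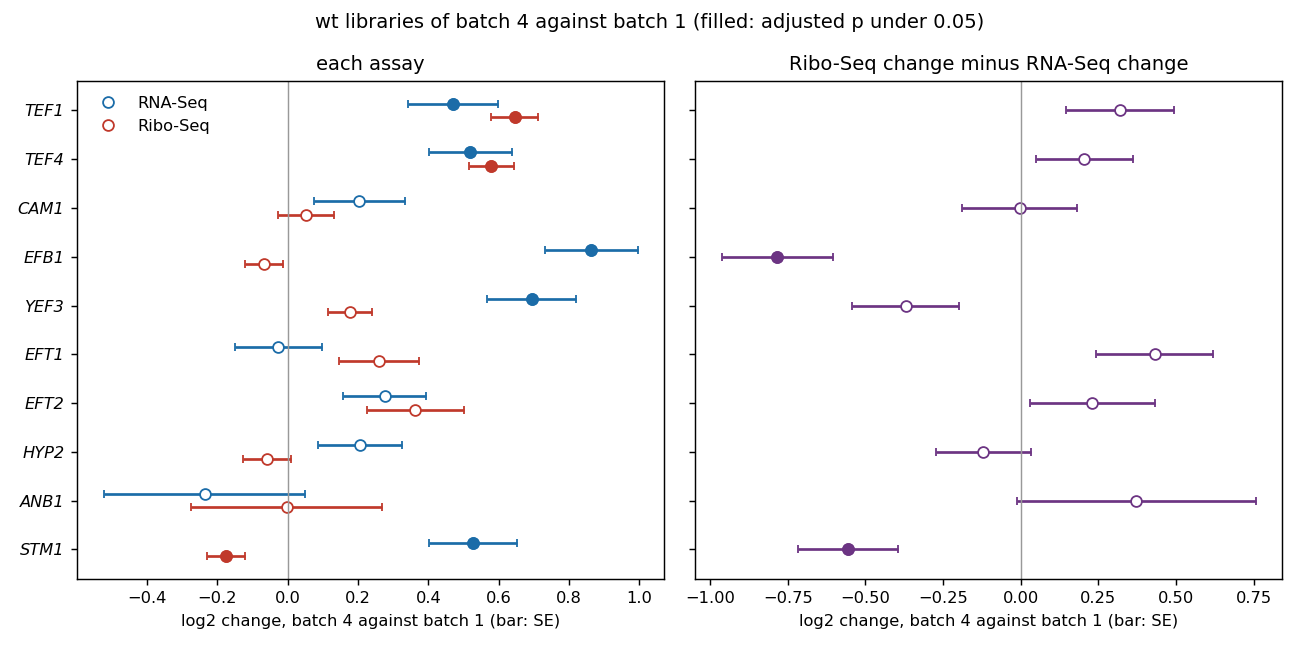
Log2 change of each gene between the wt libraries of batch 4 and batch 1, with both assays on the left and the interaction of batch and assay on the right, bars of 1 SE, and filled symbols for an adjusted p under 0.05. The right panel used TMM factors over both assays together, so its values are not the plain differences of those on the left. EFB1 lies at 0.86 for transcripts and -0.067 for footprints, while TEF1 (0.47 and 0.65) and TEF4 (0.52 and 0.58) lie to the right of 0 in both assays.

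Of the further elongation genes, 15 of the 23 tested were called higher in batch 4 of wt by their transcripts, with a list median of 0.40 against -0.029 over all tested genes, and 1 lower. Of all tested genes 10.2% were called higher and 20.1% lower. They included the diphthamide genes DPH1 (0.53), DPH2 (0.72), DPH5 (0.39), DPH6 (0.40) and JJJ3 (0.62), both hypusine enzymes, DYS1 (0.40) and LIA1 (0.72), the methyltransferases EFM1 (0.37), EFM2 (0.49), EFM4 (0.49) and EFM5 (0.49), the eEF1A assembly factor ZPR1 (0.52), TEF2, and the termination factors SUP45 (0.31) and SUP35 (0.44). LSO2, whose protein binds idle ribosomes, was the gene called lower, at -0.60. In Ribo-Seq 13 were called higher, against 11.2% of all tested genes. These were DPH6 (0.72), EFM1 (0.71), EFM4 (0.62), DPH5 (0.53), EFM2 (0.51), TEF2 (0.51), DPH2 (0.49), DYS1 (0.43), EFM5 (0.42), DPH1 (0.40), SUP45 (0.39), NEW1 (0.275) and LIA1 (0.24). RCK2 was called lower (-0.37), against 20.0%. DESeq2 called 13 of the 23 in RNA-Seq and 5 in Ribo-Seq in either direction, in place of 16 and 14, and 26.6% and 21.0% of all tested genes. In RO edgeR called 0 of the 23, against 13.0% of all tested genes, and 4 had an unadjusted p under 0.05, against 26.9%. DESeq2 called 1 in RO, SUP35, against 9.52%. For comparison, a list of cytosolic ribosomal protein genes was taken by symbol, as RPL, RPS or RPP with a number. Its 138 genes include RPP1 (YHR062C), which encodes a subunit of RNase P and not a ribosomal protein. The list had 48 called higher and 2 lower in RNA-Seq (median 0.28) and 20 higher and 1 lower in Ribo-Seq (median 0.066).

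For each of the 10 genes the tested gene with the most similar profile was taken as that with the highest value of the lower of 2 Pearson correlations, over the 14 RNA-Seq and over the 12 Ribo-Seq libraries. The libraries share batches and depth, so these are descriptions only. TEF4 was nearest to FRS1, a phenylalanyl-tRNA synthetase subunit (0.97 and 0.94), TEF1 to HIS1 of histidine synthesis (0.94 and 0.89), STM1 to RAD23 of nucleotide excision repair (0.87 and 0.93) and YEF3 to ARB1, a ribosome assembly ATPase (0.92 and 0.86). EFB1 was nearest to SCD6 (0.84 and 0.80), HYP2 to RTF1 (0.81 and 0.84) and CAM1 to TPI1, the triosephosphate isomerase (0.79 and 0.75). URA1 was the nearest gene to both EFT2 (0.94 and 0.80) and EFT1 (0.67 and 0.75). ANB1 was nearest to AAC3, an ADP/ATP carrier (0.69 and 0.63), both at low counts.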

How the data were processed

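Per the study's methods and the submitters' processing notes, the authors trimmed reads with cutadapt 2.10, removed Ribo-Seq duplicates by their barcodes, discarded rRNA reads with Bowtie2 1.2.3 and mapped the rest with STAR 2.7.9a to the Ensembl annotation of build R64. The deposited values are raw counts per gene of reads with 1 genomic position, on the sense strand. Reads at several positions (6.23 to 12.3% of RNA-Seq and 41.0 to 61.2% of Ribo-Seq reads) were not counted, which lowers genes with near-identical copies. Of 7036 genes, 5956 matched RefSeq R64, the source of positions and sequences.

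From the 26 libraries, genes reaching 10 CPM in at least 4 libraries of each assay (4473 of 6866 with any count) were tested with edgeR 4.0.16 in R 4.3.3 (limma 3.58.1) by the quasi-likelihood F-test, with TMM factors and Benjamini-Hochberg adjustment over all tested genes at 0.05. Each assay was fitted with strain and batch, RO as the interaction of strain and assay with a batch effect in each assay, and wt batches within wt. For RO the TMM factors were computed over the libraries of both assays together. The model was tested on simulated counts first. Fold changes are log2 values, and approximate intervals cover 95%. Groups came from the strain labels. All 10 genes, any gene of the list of 25 called in the main edgeR fits, and TEF2 and HEF3 are named. The genes, lists and tests were chosen with earlier results of these data known. The sources do not say that replicates came from separate cultures throughout, so p-values measure the spread between libraries. The 44 pairs of same-group libraries differed beyond counting noise (chi-square per degree of freedom at least 2.12).

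Alternatives were ComBat-seq (sva 3.50.0), no batch term, DESeq2 1.42.0, median-of-ratios factors, no filter, leaving out each library, and a replicate block. Per the study's methods, RNA-Seq and Ribo-Seq came from parts of the same lysate. Over 11 pairs of libraries with the same strain, batch and number, deviations from the group means correlated at 0.086 to 0.784. Groups that span batches carry the batch in these deviations, so the correlations cannot show that the pairs are single cultures. The main RO fit had no term for culture, and the block on cultures was an alternative.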

Additional observations from a re-analysis of the deposited data

Results flagged for a closer look

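Of 60 groups of 4 or 5 libraries examined (10 genes in 6 groups), 3 held a library far from the others, and chance flags about 1 group in 20. EFB1 transcripts read 1843 CPM in pub1Δ replicate 5, the batch 1 library, against 2655 to 2986 in the other pub1Δ libraries. EFB1 footprints read 4458 CPM in wt replicate 1 against 4067 to 4129 in the other wt libraries. HYP2 transcripts read 2631 CPM in pub1Δ replicate 4, the batch 4 library, against 2117 to 2263. The role of batch in these values was not tested beyond the comparison of wt libraries.

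In the wt libraries, the change from batch 1 to batch 4 differed between Ribo-Seq and RNA-Seq for EFB1 (-0.78 in edgeR's test of the interaction, adjusted p = 0.00771) and for STM1 (-0.56, adjusted p = 0.0321). This comparison was added after the values of each assay had been seen, and 13.0% of all tested genes were called in it. EFB1 was not called without Ribo-Seq replicate 1 (-0.72, adjusted p = 0.0533), and STM1 was not called without RNA-Seq replicate 1 or 3 or any 1 of the 4 Ribo-Seq libraries (adjusted p of 0.0789 to 0.136).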

How the results depend on the processing

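How batch was handled moved the strain calls most. With ComBat-seq and no batch term, genes called rose to 1516 (RNA-Seq), 1138 (Ribo-Seq) and 1013 (RO) in gir2Δ and to 491, 547 and 112 in pub1Δ, from 3, 1, 0, 2, 6 and 0. Of the 10 genes, 5, 6 and 3 were then called in gir2Δ, and 1 and 4 in RNA-Seq and Ribo-Seq of pub1Δ. The cause was not tested. DESeq2 called 21, 2 and 5 genes in gir2Δ and 11, 11 and 1 in pub1Δ. Without a filter 14 and 17 genes were called in gir2Δ and 5 and 40 in pub1Δ (RNA-Seq and Ribo-Seq), and 5 of the 10 genes in wt Ribo-Seq. Median-of-ratios factors gave 8 in gir2Δ RNA-Seq. Without a batch term 1 gene was called in gir2Δ (RNA-Seq), and in pub1Δ 36 were called in RNA-Seq and 1 in RO.

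Signs turned without a batch term for gir2Δ TEF1 (-0.019 in RNA-Seq, -0.13 in Ribo-Seq, -0.22 in RO), YEF3 (-0.30), ANB1 (0.043) and STM1 (-0.071) in RNA-Seq and STM1 in RO (0.034). In pub1Δ they turned for TEF1 (0.13, -0.0045 and -0.11 in the same order), CAM1 (0.11), EFB1 (0.098) and STM1 (0.14) in RNA-Seq, HYP2 (-0.015) and ANB1 (-0.15) in Ribo-Seq, and EFT1 (-0.078) and STM1 (-0.26) in RO. With ComBat-seq, pub1Δ RO turned for EFT1 (-0.011) and EFT2 (-0.033). DESeq2 and median-of-ratios factors turned gir2Δ STM1 in RO (0.0034 and 0.0035), wt EFT1 in RNA-Seq (0.0201 and 0.0202, and 0.0104 without a filter) and wt ANB1 in Ribo-Seq (0.0125 and 0.0226).

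Of the libraries with the same number as a wt library, 2 of gir2Δ and 2 of pub1Δ also shared batch 1 with it. Their correlations were -0.029 and -0.015 in gir2Δ and 0.788 and 0.894 in pub1Δ, against -0.169 to 0.022 and -0.604 to 0.500 for pairs that share the number only. The numbers were not taken as a pairing. With this replicate block 10 genes were called in gir2Δ RNA-Seq and 1 in each pub1Δ assay. With the block on cultures, 11 were called in gir2Δ RO, 0 of them among the 10 genes, and EFT1 was added in wt RO (0.53, adjusted p = 0.026). The blocks changed no other call of the 10 genes. Signs turned under a replicate block for gir2Δ STM1 in RNA-Seq (-0.018) and RO (0.013), gir2Δ EFT1 (0.049) and EFT2 (0.21) in Ribo-Seq, pub1Δ CAM1 in Ribo-Seq (-0.018), pub1Δ EFT2 in RO (-0.014) and wt CAM1 in RO (0.039).

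Leaving out each library in turn gave 0 calls among the 10 genes in the strain comparisons. Genes called ranged from 2 to 8 in gir2Δ RNA-Seq (8 without wt replicate 4), 1 to 2 in gir2Δ Ribo-Seq, 1 to 6 in pub1Δ RNA-Seq (6 without pub1Δ replicate 1), 1 to 9 in pub1Δ Ribo-Seq (1 without wt replicate 1) and 0 to 1 in pub1Δ RO. In wt they ranged from 812 (without replicate 3) to 1701 in RNA-Seq, 829 (without replicate 4) to 1722 in Ribo-Seq and 321 (without Ribo-Seq replicate 3) to 845 in RO, with 3 to 7, 2 to 6 and 0 to 3 of the 10 genes called. Where this left 1 library in a batch, its spread was taken from the other libraries. Log2 changes with a sign that turned ranged in gir2Δ from -0.036 to 0.12 (YEF3, RNA-Seq), -0.015 to 0.14 (STM1, RNA-Seq), -0.13 to 0.049 (EFT1, Ribo-Seq), -0.23 to 0.21 (EFT2, Ribo-Seq), -0.021 to 0.15 (TEF1, RO), -0.12 to 0.030 (TEF4, RO) and -0.10 to 0.028 (STM1, RO). In pub1Δ they ranged from -0.18 to 0.040 (EFB1, RNA-Seq), -0.018 to 0.020 (CAM1, Ribo-Seq), -0.030 to 0.071 (HYP2, Ribo-Seq), -0.19 to 0.0025 (EFB1, RO), -0.12 to 0.067 (YEF3, RO), -0.062 to 0.13 (EFT1, RO) and -0.18 to 0.28 (EFT2, RO). In wt they ranged from -0.11 to 0.087 (EFT1, RNA-Seq), -0.51 to 0.0077 (ANB1, RNA-Seq), -0.15 to 0.028 (HYP2, Ribo-Seq), -0.35 to 0.25 (ANB1, Ribo-Seq) and -0.16 to 0.085 (CAM1, RO). The gir2Δ fits without gir2Δ replicate 4 and the pub1Δ Ribo-Seq and RO fits without pub1Δ Ribo-Seq replicate 4 could not be made, since no library of the strain would share a batch with wt. Depth limited ANB1 (5 to 60 footprint counts per library), and unique sequence limited TEF1, EFT1 and EFT2.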

Other observations

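HEF3, a paralog of YEF3 with 74.8% coding identity, had few counts beside it. Its levels were 11.7 to 18.9 CPM in wt RNA-Seq and 1.84 to 7.05 in wt Ribo-Seq, where YEF3 had 3391 to 6405 and 11044 to 13661. As these genes share 3135 coding bases in length, the levels can be set side by side without scaling.

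Profiles of the copies were alike to differing degrees. Over the 14 RNA-Seq and the 12 Ribo-Seq libraries, which share batches, Pearson correlations of log levels were 0.79 and 0.76 for EFT1 with EFT2, 0.40 and 0.54 for TEF4 with CAM1, and -0.45 and 0.02 for HYP2 with ANB1. EFB1 and STM1 correlated at 0.79 and 0.74, and TEF1 and STM1 at 0.93 and -0.56. These values are descriptions over libraries that share batches.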
